A study of Mus musculus with 12 samples.

Results

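The Cyp2b cytochromes P450 were examined together with the nuclear receptor CAR and with the genes that serve P450 enzymes in the liver and duodenum of mice given corticosterone (CORT). The group held 7 genes of the 55416 in each table: Cyp2b10, Cyp2b9, Cyp2b13, Cyp2b23, Nr1i3, which encodes CAR, Por and Alas1. They were found by gene name, and all 7 were in both tables. The group was chosen with the CORT and Veh levels of these genes known (it was selected on the same TPM values), so these are given as a description with no test.

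RNA was sequenced from 3 CORT-treated and 3 vehicle-treated (Veh) mice per tissue, with 12 libraries in all, and the labels call each a biological replicate. Male C57BL6/J mice, 8 weeks old at the start, were injected under the skin once a day over 8 weeks with CORT at 40 mg/kg or with the vehicle alone. The hormone is the chief glucocorticoid of mice and rats, and the vehicle was a mixture of DMSO, Tween-80 and water. No group carried a genetic change. The labels call the second tissue intestine, and the methods name the duodenum. Each sample was 50 mg of tissue, so a level averages over all cell types of the piece, and fewer cells of a type cannot be told apart from less RNA per cell.

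CAR is a receptor of hepatocytes and enterocytes that stays in the cytoplasm until a drug or another signal moves it to the nucleus, where it pairs with the retinoid X receptor on DNA. Cyp2b10 is its best known target in the mouse and encodes an enzyme that oxidizes drugs and steroids. Every microsomal P450 takes its electrons from P450 oxidoreductase (Por) and holds a heme group, whose synthesis in the liver is limited by 5-aminolevulinate synthase (Alas1). Cyp2b9 and Cyp2b13 are close copies of Cyp2b10 that are known for higher levels in the livers of female mice.

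The Cyp2b genes lie in 1 cluster on chromosome 7. To show how alike the copies are, the 250 bases before each RefSeq start are printed 5′ to 3′ in build GRCm38.p6, an earlier build than the GRCm39 the labels name. Each line gives the part of the plus or minus strand that runs into the gene. For Cyp2b10 (chr7:25897408-25897657, plus strand) and Cyp2b23 (chr7:26686431-26686680, minus strand), capitals mark the letters TTGCNNAA, which C/EBP proteins can bind. For Cyp2b9 (chr7:26173159-26173408, plus strand) and Cyp2b13 (chr7:26061245-26061494, plus strand), capitals mark the 2 bases at which these windows differ.
Cyp2b10: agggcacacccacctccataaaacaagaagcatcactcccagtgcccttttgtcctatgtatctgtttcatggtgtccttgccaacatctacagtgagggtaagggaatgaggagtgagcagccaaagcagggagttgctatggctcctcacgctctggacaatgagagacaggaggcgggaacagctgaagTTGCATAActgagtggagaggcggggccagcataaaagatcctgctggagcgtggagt
Cyp2b23: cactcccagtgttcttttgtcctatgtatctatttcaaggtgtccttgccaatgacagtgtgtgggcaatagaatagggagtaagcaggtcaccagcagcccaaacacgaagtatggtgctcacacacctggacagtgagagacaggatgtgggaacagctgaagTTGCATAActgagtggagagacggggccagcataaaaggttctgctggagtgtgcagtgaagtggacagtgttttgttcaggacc
Cyp2b9: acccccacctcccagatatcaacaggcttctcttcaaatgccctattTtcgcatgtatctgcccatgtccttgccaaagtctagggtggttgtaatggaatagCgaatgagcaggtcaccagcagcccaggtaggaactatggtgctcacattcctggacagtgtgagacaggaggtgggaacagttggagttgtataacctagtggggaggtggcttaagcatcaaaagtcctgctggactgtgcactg
Cyp2b13: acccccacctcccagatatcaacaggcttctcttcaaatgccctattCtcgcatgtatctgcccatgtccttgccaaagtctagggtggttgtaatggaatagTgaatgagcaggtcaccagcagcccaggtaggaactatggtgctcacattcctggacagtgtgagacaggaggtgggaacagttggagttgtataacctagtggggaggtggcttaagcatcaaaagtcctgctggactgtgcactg

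The windows of Cyp2b9 and Cyp2b13 were the same at 248 of 250 bases (99.2%). Counted from 1 at the 5′ end of the window, with the Cyp2b9 base first, the differences were T48C and C104T. Cyp2b10 shared 70.0% of aligned bases with Cyp2b9 and 62.8% with Cyp2b23. TTGCNNAA was found on either strand in all 4 Cyp2b windows, starting 58 bases before the start of Cyp2b10 and 85 before that of Cyp2b23, and in 9.56% of all 32851 windows of this length. In Cyp2b9 and Cyp2b13 it started 180 bases before the start, in a stretch that is not in capitals above. The nuclear receptor half-site AGGTCA stood in the windows of Cyp2b9, Cyp2b13 and Cyp2b23, against 14.02% of all windows, and the half-site of the glucocorticoid receptor, AGAACA, in that of Cyp2b23 alone among the 7 genes, against 16.08%. Neither a direct repeat of AGGTCA spaced by 4 bases, which stood in 0.02% of all windows, nor a palindrome of AGAACA spaced by 3 bases (0.01%) was found before any of the 7 genes. A match is no evidence of binding, and these windows hold none of the more distant control regions.

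Reads from close copies can be assigned to the wrong gene. In the GENCODE M21 transcripts of GRCm38, none of the 2103 stretches of 100 bases in Cyp2b10 occurred in another Cyp2b gene. Cyp2b9 and Cyp2b13 shared 21 such stretches with each other, 1.18% of each, and none with Cyp2b10. Over 50 bases, 7.7% of the stretches in Cyp2b10 were shared, nearly all of them with Cyp2b13. The values of Cyp2b9 and Cyp2b13 are therefore uncertain where reads fell on shared stretches. Before trimming, the reads of the study were longer than the stretches compared here. The annotation release behind the deposited values is not given in the sources used here.

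The values are TPM, a relative transcript level per length, which sum to between 983327 and 997319 per library. Depth cannot be read from them. Differences were taken on log2(TPM + 1), which understates the change of low genes, and genes with a group mean of 1 TPM or more were tested with limma. Calls required a Benjamini-Hochberg adjusted p no higher than 0.05 together with a fold over 1.5. By this rule 6.92% of 11699 genes were called in the liver and 2.15% of 13607 in the duodenum. The treatment showed in Fkbp5, a glucocorticoid target, which was at 7.14, 12.73 and 19.51 TPM in the Veh livers and at 273.03, 249.24 and 220.88 TPM in the CORT livers, and differed by 4.23 ± 0.32 (SE, n = 3) on the log2 scale (limma, adjusted p = 0.00178). In the duodenum it differed by 4.30 ± 0.34 (SE, n = 3; limma, adjusted p = 0.00448).

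The liver libraries held hepatocyte markers (4 genes, including Alb) at a sum of 48271 to 83767 TPM, and 7 enterocyte markers at 26.6 to 111 TPM, nearly all of it Fabp2, with Alpi and Pdx1 at 0 in all 6. In the duodenum, 7 enterocyte markers summed to between 6855 and 9925 TPM and the 4 hepatocyte markers to between 8397 and 21688 TPM, nearly all of it Apoa1, which enterocytes also make, while Alb was at 0.13 to 0.39 TPM. The Veh2 and Veh3 duodenum libraries stood apart. The 15 pancreatic acinar genes summed to 36471 TPM in Veh2 and 29351 TPM in Veh3, against 179.56 TPM in Veh1 and 143 to 317 TPM in the CORT libraries. For some duodenum genes the difference is therefore also given without Veh2 and Veh3. Where it is not given, dependence on these libraries is not shown.

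**Figure D1:**
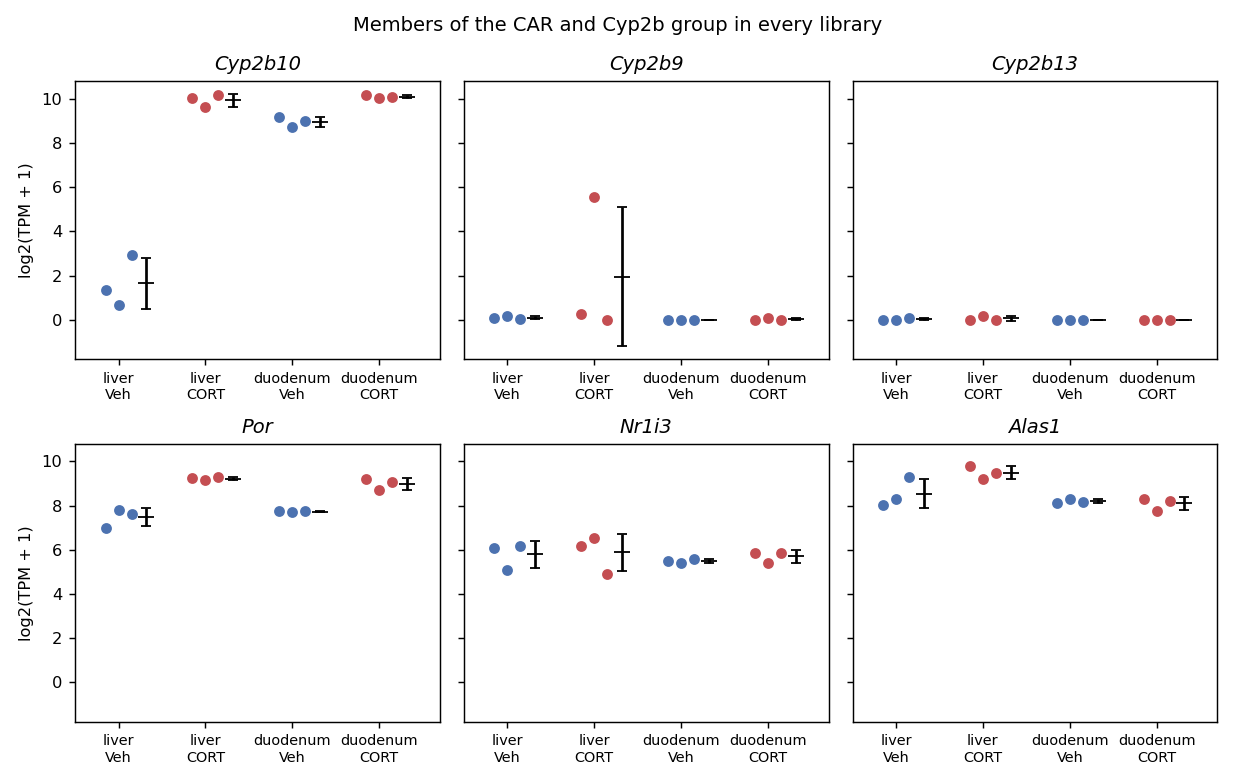
Level of 6 of the 7 genes in every library on the log2(TPM + 1) axis, blue for Veh and red for CORT, with the group mean and SD as bars; Cyp2b23, at or near 0 throughout, is not drawn. Cyp2b10 runs from 0.6 to 6.51 TPM in the Veh livers and from 777.67 to 1140.95 TPM in the CORT livers, Cyp2b9 is high in the CORT2 liver, and the Nr1i3 values of the groups overlap in both tissues.

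Cyp2b10 was low in the livers of vehicle-treated mice and abundant in those of CORT-treated mice. Its level was 1.56, 0.6 and 6.51 TPM in the Veh livers and 1052.32, 777.67 and 1140.95 TPM in the CORT livers. The means were 2.89 ± 3.17 and 990 ± 189 TPM (SD, n = 3), a ratio of 343, and the lowest CORT liver was 119 times the highest Veh liver. On the log2 scale the difference was 8.29 ± 0.52 (SE), which placed Cyp2b10 first of the 11699 genes by size of increase. The 3 Veh livers themselves were widely spread, which makes the ratio of means less certain than the gap between the groups.

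In the duodenum Cyp2b10 was already high without CORT, and the CORT libraries were higher still. The Veh duodena held 574.69, 423.99 and 500.81 TPM and the CORT duodena 1143.31, 1050.25 and 1064.26 TPM. These values did not overlap, with the lowest CORT library at 1.83 times the highest Veh library. The means were 500 ± 75.4 and 1086 ± 50.2 TPM (SD, n = 3), a ratio of 2.17, and the log2 difference was 1.13 ± 0.15 (SE), the 270th largest increase of 13607 genes. The difference was 1.10 with the acinar genes removed and 0.92 without Veh2 and Veh3, against the single Veh1 library, which had the highest Veh value.

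By group mean, the order of the Cyp2b10 level was Veh liver, Veh duodenum, CORT liver and CORT duodenum. The first 2 steps in this order did not overlap in their library values. CORT liver and CORT duodenum overlapped, at 777.67 to 1140.95 and 1050.25 to 1143.31 TPM. The tissues were quantified in separate tables, so an order across them is a description.

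Cyp2b9 was near 0 in every liver but 1. It stood at 0.05, 0.12 and 0.02 TPM in the Veh livers and at 0.19, 46.58 and 0 TPM in the CORT livers, so that the CORT2 library alone held nearly all of it. The log2 difference of 1.85 ± 1.38 (SE) was within the spread of the CORT libraries, and the gene passed the limit on low values through CORT2 only. In that library Cyp2b9 reached 5.99% of the level of Cyp2b10, against 0.0181% in CORT1 and 0% in CORT3. In the Veh livers, where both genes were low, the share was 3.21%, 20.0% and 0.307%. The CORT2 liver also held the lowest Cyp2b10 value of the CORT livers. In the duodenum Cyp2b9 was at 0.07 TPM in CORT2 and listed at 0 in the other 5 libraries.

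Cyp2b13, whose upstream window is nearly that of Cyp2b9, did not share its level in CORT2. It was at 0.13 TPM in the CORT2 liver, at 0.05 TPM in the Veh3 liver, and listed at 0 in the other 4 livers and in all 6 duodena. Cyp2b23 was at 0.03 TPM in the CORT2 liver and listed at 0 in the other 11 libraries. Both were too low to be tested. Of the other Cyp2b genes, Cyp2b19 and the pseudogenes Cyp2b26-ps and Cyp2b27-ps were listed at 0 in all 12 libraries. Nearly all Cyp2b transcripts in these tissues were thus assigned to Cyp2b10.

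The transcript of the receptor itself did not separate the groups. Nr1i3 was at 66.77, 33.48 and 71.85 TPM in the Veh livers and at 71.7, 91.79 and 29.13 TPM in the CORT livers. CORT livers held both the highest and the lowest value. The log2 difference was 0.09 ± 0.46 (SE) and changed sign, to -0.01, under a median-ratio scaling of the libraries. In the duodenum Nr1i3 was at 43.88, 41.39 and 46.48 TPM with vehicle and at 57.25, 40.65 and 57.17 TPM with CORT, a difference of 0.21 ± 0.16 (SE), and the CORT2 library lay below all Veh libraries. The level of Cyp2b10 relative to Nr1i3 moved from 0.0179 to 0.0906 in the Veh livers to 8.47 to 39.2 in the CORT livers. In the duodenum this ratio was 10.2 to 13.1 with vehicle and 18.6 to 25.8 with CORT.

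Por, the electron donor of the P450 enzymes, was higher with CORT in both tissues. The Veh livers held 127.21, 221.27 and 195.72 TPM and the CORT livers 598.57, 561.46 and 628.29 TPM. The means were 181 ± 48.6 and 596 ± 33.5 TPM (SD, n = 3), a ratio of 3.29 and a log2 difference of 1.75 ± 0.21 (SE), and the lowest CORT liver was 2.54 times the highest Veh liver. The Veh duodena were tightly grouped at 212.72, 207.48 and 214.32 TPM, and the CORT duodena held 588.81, 412.33 and 538.96 TPM. Here the ratio of means was 2.43 and the log2 difference 1.26 ± 0.16 (SE), or 1.25 without Veh2 and Veh3. The Por values of the groups did not overlap in either tissue.

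Alas1, which limits heme synthesis, overlapped between the groups in both tissues. It was at 262.83, 309.84 and 634.81 TPM in the Veh livers and at 895.24, 585.53 and 712.14 TPM in the CORT livers, a log2 difference of 0.95 ± 0.34 (SE). The Veh3 liver lay above the CORT2 liver. In the duodenum the values were 279.94, 315.83 and 285.85 TPM with vehicle and 316.07, 216.75 and 298.45 TPM with CORT, a difference of -0.10 ± 0.17 (SE). Of the 7 genes, Cyp2b10 and Por met the rule for a call in the liver (2 of 5 tested, both higher, where 6.92% of all genes were called and 4.91% were called higher) and in the duodenum (2 of 4 tested, both higher, against 2.15% and 1.23%). None was called lower, where 2.01% of all liver genes and 0.919% of all duodenum genes were. The same 2 genes were those whose CORT and Veh values did not overlap, which held for 32.2% of all liver genes and 26.4% of all duodenum genes. The choice of the genes used these values, so nothing is read from the counts.

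The genes whose profile over the 6 livers was most like that of Cyp2b10 were Gm43305, Sult1e1 and Cdkn1a. Likeness was the root mean square difference between log2 profiles centred on their own means, which was 0.51, 1.46 and 1.47. Gm43305, a processed transcript on chromosome 14 in GENCODE M21, was at 5.27, 2.44 and 9.97 TPM in the Veh livers and at 1241.3, 663.97 and 1989.41 TPM in the CORT livers. It followed the order of Cyp2b10 in all 6 libraries, with Veh2 lowest and CORT3 highest. Sult1e1, the estrogen sulfotransferase, ran from 0.12 to 0.75 TPM and from 44.51 to 166.65 TPM, and Cdkn1a, the cell cycle inhibitor p21, from 0.66 to 2 TPM and from 98.1 to 147.18 TPM.

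**Figure D2:**
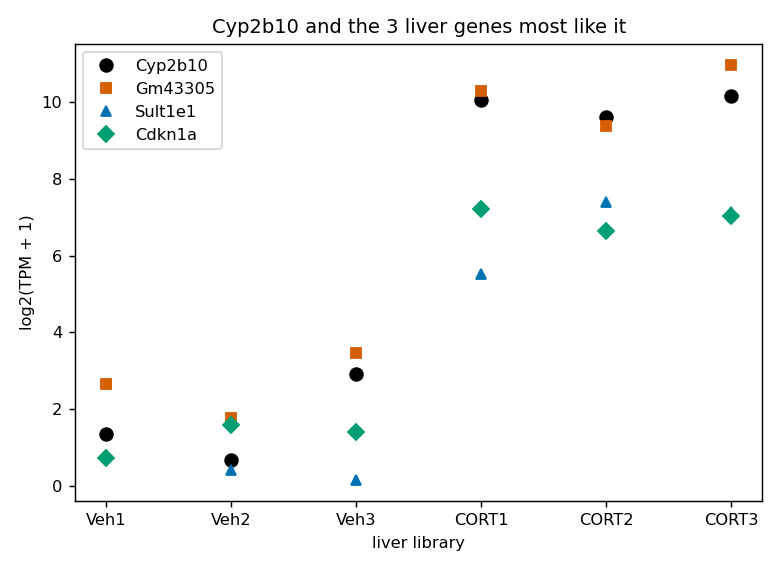
Level of Cyp2b10 and of the 3 genes most like it in each of the 6 liver libraries, on the log2(TPM + 1) axis. All 4 are low in the Veh libraries and high in the CORT libraries, and Gm43305 keeps closest to Cyp2b10, with a root mean square difference of 0.51.

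For Nr1i3 the nearest liver profiles were those of the carboxylesterase Ces2e (0.14), Csrp3 (0.16) and the thymidine phosphorylase gene Tymp (0.18). Ces2e was at 68.31, 38.8 and 96.66 TPM in the Veh livers and at 98.47, 116.48 and 34.7 TPM in the CORT livers. Like Nr1i3 it was lowest in CORT3 and Veh2 and highest in CORT2. In the duodenum the profiles most like Cyp2b10 were those of the receptor kinase gene Mertk (0.081), of Pex11a (0.087), which acts in peroxisome division, and of Ahcy (0.107), which hydrolyzes S-adenosylhomocysteine. Mertk was at 44.29, 30.44 and 35.37 TPM with vehicle and at 76.76, 82.26 and 73.64 TPM with CORT. These genes were picked for likeness, which was measured on the same libraries and is not tested.

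Other genes known to be induced through CAR differed in both directions, and a few of them were called. Of 28 such genes tested in the liver, 4 were called (14.3%, against 6.92% of all genes), all higher with CORT (against 4.91% called higher), and 15 had a positive and 13 a negative difference. Their median log2 difference was 0.08, and that of all tested genes was also 0.08. Of the 4, Akr1b7 entered the test through the CORT group alone and was not called with no limit on low values. Without the Veh2 liver, 2 genes of the list were called higher and 2 lower. In the duodenum 3 of 25 were called higher and 1 lower (16% called, against 2.15% of all genes), with a median of 0.03 against -0.01 for all genes.

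Cyp3a11, the main drug-oxidizing P450 of the mouse and a target of both CAR and the pregnane X receptor, rose in both tissues. It was at 648.11, 883.45 and 794.13 TPM in the Veh livers and at 2873.86, 2033.22 and 2111.2 TPM in the CORT livers, a log2 difference of 1.59 ± 0.19 (SE; limma, adjusted p = 0.00693). In the duodenum it was at 328.72, 412.34 and 544.28 TPM with vehicle and at 1952.7, 2673.52 and 1849.61 TPM with CORT, a difference of 2.34 ± 0.23 (SE; limma, adjusted p = 0.00789). The groups did not overlap in either tissue.

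Gadd45b, a stress-induced gene that CAR also induces, rose by 4.66 ± 0.56 (SE) on the log2 scale in the liver (limma, adjusted p = 0.00693) and by 1.64 ± 0.28 in the duodenum (limma, adjusted p = 0.0392). Its liver values were 0.82, 0.96 and 1.87 TPM with vehicle and 109.99, 20.56 and 67.5 TPM with CORT. The aldo-keto reductase Akr1b7 rose by 1.51 ± 0.31 in the liver, from 0.04 to 0.14 TPM up to 1.24 to 3.72 TPM. Its Veh mean was below 1 TPM, so it entered the liver test through the CORT group alone, where it is high. No p-value is therefore given for it in the liver. In the duodenum it rose by 2.83 ± 0.49 (limma, adjusted p = 0.0397), from 47.61 to 181.32 TPM up to 712.89 to 1017.18 TPM. The fourth liver call, the glutathione transferase Gstm2, lay outside the rule for named genes and was added after its values were seen, with a difference of 1.35 ± 0.31 (limma, adjusted p = 0.0490).

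Calls near the threshold were lost in smaller sets of libraries, while the folds kept their direction. The liver call of Akr1b7 was lost when any 1 of the 6 libraries was left out (log2 differences of 1.20 to 1.74), and the duodenal call of Gadd45b was lost in 5 of 6 such fits, all but the one without Veh1 (1.33 to 1.88). The duodenal call of Akr1b7 was lost in 4 of 6, those without Veh3 or 1 of the CORT libraries (2.22 to 3.18). The liver call of Gstm2 was kept only in the fit without CORT1, and it was lost under median-ratio scaling. Cyp3a11 kept its call in all 6 fits in each tissue and Gadd45b in all 6 in the liver. Against Veh1 alone no CAR target was called in the duodenum, where Cyp3a11 had a difference of 2.69 and an adjusted p of 0.126 in limma.

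Cyp2c55, a P450 that CAR induces in the liver, fell in the duodenum. It was at 43.3, 42.78 and 45.41 TPM with vehicle and at 3.77, 5.7 and 6.88 TPM with CORT, a log2 difference of -2.83 ± 0.19 (SE; limma, adjusted p = 0.0031). The call held in all 6 fits with 1 library left out. Against Veh1 alone the difference was -2.81, with an adjusted p of 0.134 in limma. Cyp2c55 was below 3 TPM in all livers, where its difference was -0.60 ± 0.20 (limma, adjusted p = 0.115).

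**Figure D3:**
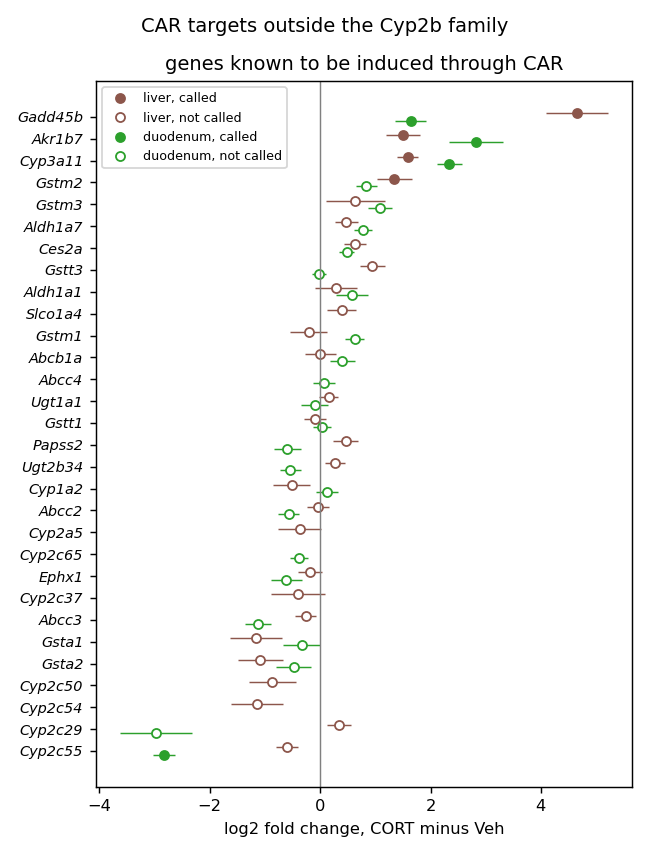
Log2 fold change, CORT minus Veh, of the CAR targets tested in the liver (brown) or duodenum (green), with the SE as bars and filled points for called genes. Gadd45b, Akr1b7 and Cyp3a11 lie right of 0 and are called in both tissues. Akr1b7 entered the liver test through the CORT group alone, and its liver call was lost when any 1 library was left out. Cyp2c55 is called lower in the duodenum at -2.83, and Cyp2c29, at -2.97 there, is not called.

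Among 22 genes that work with CAR, 3 were called in the liver, 2 of them higher with CORT and 1 lower, where 4.91% of all genes were called higher and 2.01% lower. Hnf4a, a receptor that drives hepatocyte genes including Nr1i3, rose from 144.38 to 161.27 TPM up to 232.8 to 315.98 TPM, by 0.86 ± 0.15 on the log2 scale (SE; limma, adjusted p = 0.0211). Foxo1, a transcription factor that can act with CAR, rose by 0.95 ± 0.20 (limma, adjusted p = 0.0357). With 1 library left out, Hnf4a was called in 3 of 6 fits and lost without Veh1, Veh3 or CORT1, and Foxo1 was called only without CORT2. The median of the list was 0.21 in the liver.

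In the duodenum 1 of the 22 was called (4.55%, against 2.15% of all genes called and 1.23% called higher). This was the corepressor gene Nr0b2 (SHP), at 5.92, 8.78 and 7.1 TPM with vehicle and 20.93, 22.46 and 15.92 TPM with CORT. The difference was 1.33 ± 0.19 (SE; limma, adjusted p = 0.0253). Nr0b2 was not called without Veh3, CORT1 or CORT2. Against Veh1 alone its difference was 1.57. In the liver Nr0b2 was not called, at 90.46, 27.31 and 26.62 TPM with vehicle and 22.89, 22.6 and 25.13 TPM with CORT. Its difference there was -0.76 ± 0.44 (SE; limma, adjusted p = 0.329). Rxra, the DNA-binding partner of CAR, differed by 0.27 ± 0.12 in the liver (limma, adjusted p = 0.209) and 0.01 ± 0.15 in the duodenum (limma, adjusted p = 0.980). Nr3c1, the glucocorticoid receptor, differed by -0.01 ± 0.17 in the liver and -0.11 ± 0.28 in the duodenum. The study reported a significantly lower level of this transcript in the livers of CORT-treated mice, listing qPCR primers for it. The pregnane X receptor gene Nr1i2 did not overlap between the groups in either tissue, with differences of 0.89 ± 0.23 and 0.98 ± 0.20. Such a gap was found for 32.2% of all liver genes and 26.4% of all duodenum genes. Nr1i2 missed the threshold in both tissues (limma, adjusted p = 0.0651 and 0.0643). Rxra, Nr3c1 and Nr1i2 were added to those the rule names because of their role beside CAR.

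The other genes of heme synthesis, heme breakdown and electron transfer gave 0 calls of 21 in either tissue with limma, with 7 in the liver and 10 in the duodenum at an unadjusted p under 0.05, a level reached by 25.9% and 19.2% of all genes. Their median difference was -0.10 in the liver and -0.24 in the duodenum, both below the median of all genes. Cpox, a late step of heme synthesis, was closest in the liver, at 44.25, 31.66 and 35.93 TPM with vehicle and 94.18, 100.43 and 53.06 TPM with CORT (1.09 ± 0.26 SE; limma, adjusted p = 0.0555). In the duodenum it was Blvra, a biliverdin reductase, with a difference of -0.57 ± 0.13 (SE; limma, adjusted p = 0.0778).

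**Figure D4:**
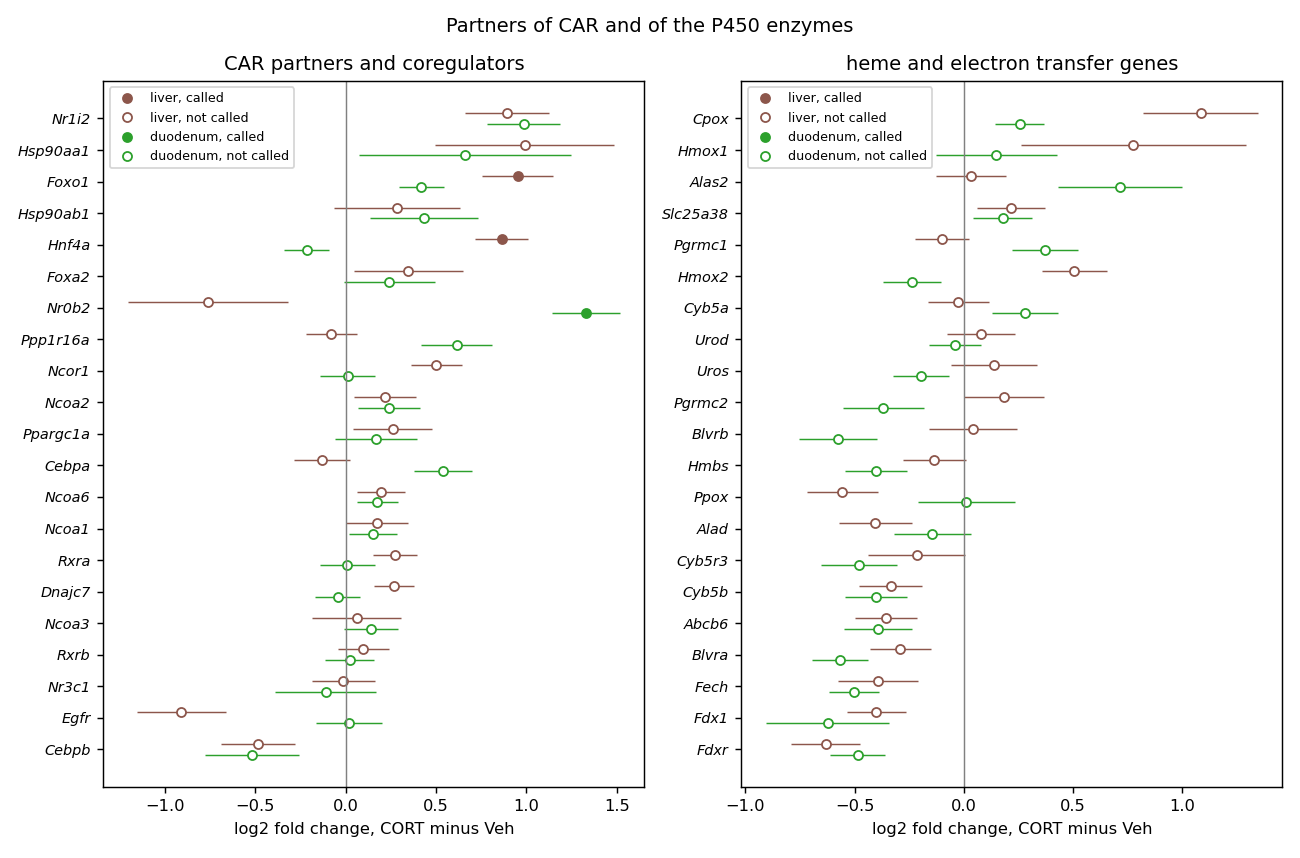
Log2 fold change, CORT minus Veh, with the SE as bars, of 21 of the 22 partners and coregulators of CAR (left) and 21 heme and electron transfer genes (right), in the liver (brown) and duodenum (green), filled where called. Hnf4a and Foxo1 are called in the liver and Nr0b2 in the duodenum, and no point of the right panel is filled.

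Because Cyp2b9 is known as a gene of female liver, other sex-biased liver genes were read in the same libraries. Of 21 listed female-biased genes, 11 passed the limit on low values and were tested. Of these, 3 rose and 0 fell with CORT (27.3% called, where 4.91% of all liver genes were called higher and 2.01% lower). A positive difference was found for 9 of the 11, and the median was 1.06. A gene low with vehicle passes this limit only if it is higher with CORT, so these figures lean towards increases. With no limit on low values, 2 of 19 were called, both higher, where 283 of all 23316 genes were called. Fmo2, a flavin monooxygenase, rose by 2.38 ± 0.24 (SE; limma, adjusted p = 0.00452), from 0.98 to 2.65 TPM up to 13.62 to 14.71 TPM. Tox rose by 1.54 ± 0.24 and entered the test through the CORT group alone, so no p-value is given for it. The steroid hydroxylase gene Cyp17a1 rose by 2.43 ± 0.54 (limma, adjusted p = 0.0443), from 2.96, 15.16 and 3.46 TPM up to 25.29, 49.36 and 32.93 TPM. Fmo2 was called in all 6 fits with 1 library left out, Tox in 3, with its call lost without Veh1, CORT1 or CORT2, and Cyp17a1 only in the one without Veh2.

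Of 21 male-biased genes, 3 fell and 0 rose (14.3% called, against the same shares of all genes), and 19 had a negative difference, with a median of -1.50. Hsd3b5, a steroid dehydrogenase of male liver, was at 181.48, 48.6 and 135.18 TPM with vehicle and at 5.41, 0.36 and 1.22 TPM with CORT, a difference of -5.32 ± 0.67 (SE; limma, adjusted p = 0.00774). Nudt7, a peroxisomal hydrolase, had a difference of -1.77 ± 0.23 (limma, adjusted p = 0.00844) and Cyp2u1 one of -1.64 ± 0.25 (limma, adjusted p = 0.0148). Cyp2u1 lost its call without Veh1, and the other 2 kept theirs in all 6 fits with 1 library left out.

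The CORT2 liver, the library with Cyp2b9, stood at the far end of both lists. It had the highest of the 6 values for 7 of the 11 female-biased genes and the lowest for 14 of the 21 male-biased genes. Without CORT2, 10 female-biased genes passed the limit on low values, so a gene can enter this list through CORT2 itself. The female-biased figures of CORT2 therefore lean upwards. Relative to the Veh mean, the median female-biased gene stood at 0.91, 1.37 and 0.64 in CORT1, CORT2 and CORT3, and the median male-biased gene at -0.41, -1.81 and -1.28. In Veh1, Veh2 and Veh3 these medians were -0.10, 0.18 and 0.03 for female-biased and 0.36, -0.48 and 0.15 for male-biased genes, so the male-biased median of Veh2 lay as low as that of CORT1. Cyp2b13, also female-biased, was near 0 in CORT2. This is a description of 1 library and was not tested.

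**Figure D5:**
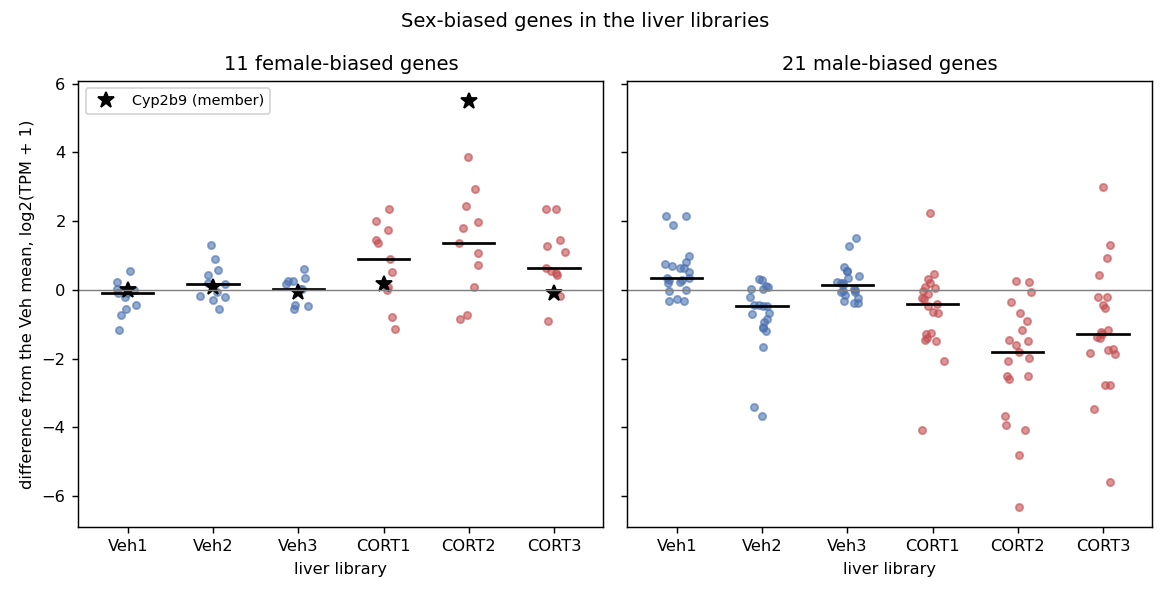
Difference of each tested sex-biased gene from its Veh mean on the log2(TPM + 1) scale in each liver library, with the median as a line and Cyp2b9 as a star. The medians of CORT2 are the farthest from 0 in both panels, at 1.37 and -1.81, and Cyp2b9 is far above 0 in that library alone.

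Levels of other cell markers were read beside these results, and their part in them was not tested. In the liver, 9 pericentral genes, of the zone around the central vein where Cyp2b10 is known to be induced, summed to 2928 to 4640 TPM with vehicle and 5127 to 8289 TPM with CORT. None of the 9 was called by limma, with 4 at an unadjusted p under 0.05, and most of the sum was Cyp2e1. Of the 9, 6 were higher and 3 lower with CORT. The 7 periportal genes overlapped between the groups, at 3242 to 5217 and 3846 to 6830 TPM. In the duodenum, 6 immune genes, Jchain making up most of it, summed to 812 to 1007 TPM with vehicle and 245 to 541 TPM with CORT. The 1 called gene of these 6 (16.7%, against 1.23% of all duodenum genes called higher) was Clec4f. Clec4f was higher with CORT, by 2.99 ± 0.24 (SE; limma, adjusted p = 0.0045), and no fit without Veh2 and Veh3 is given for it. The 7 enterocyte genes were at 6855 to 7821 and 8508 to 9925 TPM as a sum, with 3 genes higher and 4 lower, a median difference of -0.02 and 0 called by limma, with 1 at an unadjusted p under 0.05. Of 6 stromal, endothelial and duct genes in the liver, 2 rose (33.3% called, against 4.91% of all genes called higher), the endothelial genes Pecam1 by 1.52 ± 0.32 (limma, adjusted p = 0.0370) and Stab2 by 1.04 ± 0.16 (limma, adjusted p = 0.0164), with 3 of the 6 lower. Pecam1, Stab2 and Clec4f were named after their values were seen.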

How the data were processed

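RNA-seq was performed on 3 CORT and 3 Veh samples of liver and of intestine (duodenum). Reads were trimmed by the authors (SeqPrep, Sickle), aligned with HISAT2 in orientation mode, assembled with StringTie and quantified with RSEM, on GRCm39 per the labels. Tool versions are not given in the sources used here. The authors deposited TPM for each gene in each library, with no pooling. TPM holds no depth, so no counting interval or detection limit is given and a value of 0 is written as listed at 0. There were 0 columns of other samples. Reads shared by Cyp2b copies were divided by the authors' RSEM run. Of the members, Cyp2b9 and Cyp2b13 had the largest share of such stretches, and an effect on their values was not tested.

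Log2(TPM + 1) values were fitted per tissue with limma 3.58.1 in R 4.3.3 (lmFit, eBayes with trend), with treatment as the term, for genes whose mean reached 1 TPM in the Veh or the CORT group. Calls needed a Benjamini-Hochberg adjusted p of 0.05 or less over all genes of the tissue and a fold over 1.5. The tissues were compared with a treatment by tissue term and no term for the mouse. The labels do not say whether liver and duodenum libraries of the same number came from the same mouse. A count model had been planned only in case of counts and was not used. The fit was tested on simulated data. An exact permutation test of 3 against 3 cannot go below p = 0.1. P-values set the difference between the groups against the spread of these samples within the groups, which limma moderates across genes.

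The 7 genes and all lists were chosen with earlier results of these data known. Named from the lists were the called genes of lowest adjusted p (up to 3 per list and direction in a tissue, or the lowest gene where none was called), together with Fkbp5 and the 3 genes most like Cyp2b10 (liver, duodenum) and Nr1i3 (liver). 1 gene that this rule names is not reported here. Alternatives were a replicate block, a pseudocount of 0.1, no limit on low values, median-ratio scaling, removal of 15 acinar genes, and leaving out each library. Upstream sequences came from the RefSeq table (GRCm38.p6), where all 7 genes matched, and were aligned with Biopython 1.88. Gene types and transcripts came from GENCODE M21.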

Additional observations from a re-analysis of the deposited data

Results flagged for a closer look

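For 5 listed genes the response to CORT differed between the tissues in a limma fit of all 12 libraries with a treatment by tissue term, adjusted over the 10500 genes tested in both tissues, of which 3% passed. The members were not tested for this. The fit had no term for the mouse and treated all libraries as independent. Among CAR targets 3 of 23 passed, among CAR partners 1 of 22 and among heme and electron transfer genes 0 of 21.

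The liver minus duodenum difference of Cyp2c55 was 2.23 ± 0.27 on the log2 scale (SE; limma, adjusted p = 0.00152), and it passed in all 12 fits with 1 library left out and without duodenum Veh2 and Veh3 (2.21, adjusted p = 0.0227). For Nudt7, a male-biased liver gene, the difference was -1.96 ± 0.30 (limma, adjusted p = 0.00538), with an adjusted p of 0.0666 without Veh2 and Veh3. For Hnf4a it was 1.08 ± 0.19 (limma, adjusted p = 0.0103), with an adjusted p of 0.0579 without them. Both passed in all 12 fits with 1 library left out.

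Cyp2c29, a P450 that CAR induces in the liver, had a difference of 3.30 ± 0.74 (limma, adjusted p = 0.0330) and was called in neither tissue alone. It passed in 4 of the 12 fits with 1 library left out. In the duodenum it was at 64.01, 390.81 and 73.48 TPM with vehicle and at 12.24, 13.81 and 19.26 TPM with CORT, so Veh2 stood far above the other Veh libraries. Without Veh2 and Veh3 the difference was 2.37 (limma, adjusted p = 0.0202). In the liver it was at 945.95, 578.96 and 941.03 TPM with vehicle and 1065.61, 1091.57 and 890.44 TPM with CORT.

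Gadd45b had a difference of 3.02 ± 0.67 (limma, adjusted p = 0.0330). It passed in 3 of the 12 fits with 1 library left out, and without Veh2 and Veh3 the difference was 2.41 with an adjusted p of 0.253 in limma. These fits with libraries left out were chosen after seeing the data.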

How the results depend on the processing

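The log2 differences of the members kept their direction under every alternative run, except those near 0: Nr1i3 in the liver and Alas1 in the duodenum crossed 0 under median-ratio scaling or with 1 library left out. Cyp2b10 in the liver ranged from 7.80 to 8.92 and Por from 1.51 to 1.91 with 1 library left out, and in the duodenum from 1.01 to 1.23 and 1.15 to 1.41. Without Veh2 and Veh3, an alternative chosen after seeing the data with the spread taken from the CORT libraries, Cyp2b10 in the duodenum moved to 0.92. Cyp2b9 in the liver fell below the limit on low values without CORT2 and then had no value.

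Counts of called genes moved more, and the cause was not tested. With no limit on low values the liver count went from 810 to 283 and the duodenum count from 292 to 52, with 2 CAR targets in each tissue and 0 CAR partners in each. Leaving out 1 library gave 247 to 831 calls in the liver and 66 to 237 in the duodenum. It gave 2 to 4 CAR targets in each tissue (2 higher and 2 lower in the liver without Veh2, where 2 were shared with the 4 reported, and 1 higher and 2 lower in the duodenum without CORT1), 0 to 3 partners in the liver and 0 to 1 in the duodenum, 0 to 1 heme and electron transfer genes in the liver, 1 to 3 female-biased and 2 to 4 male-biased genes. The liver count moved by over 1.5 times without any library but Veh2 and was lowest without CORT1. The duodenum count did so without any library but Veh1 and was lowest without Veh3. Without both Veh2 and Veh3, 10 duodenum genes were called, with 0 CAR targets and 0 partners. In the liver 1 heme and electron transfer gene, Cpox, was called higher with a pseudocount of 0.1 and 2 were called lower under median-ratio scaling, against 0 as reported. Median-ratio scaling gave 543 higher and 468 lower calls in the liver, against 575 higher and 235 lower. With the replicate number as a block, 307 liver and 62 duodenum genes were called, with 2 CAR targets in each tissue, 0 partners in each and 5 male-biased genes. Veh and CORT libraries sharing a number had deviations with correlations of -0.12 to 0.0378 in the liver and -0.0039 to 0.0734 in the duodenum. With 3 libraries per group these cannot show whether the numbers pair the samples. Liver and duodenum libraries were not compared this way.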
